A study of Mus musculus with 30 samples.

Results

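Fhl2 was followed through 15 adult mouse tissues by 1 probe, Z00035440-1, among the 42006 probes of the array and the 25030 rows of the deposited value table. The gene was chosen by its log2 ratios in heart, skeletal muscle, brain cortex and cerebellum on these same arrays, so its own levels and differences are given as a description, with no test. All mice were male C57BL/6 animals of 28 weeks per the labels, with no treatment or genetic change named. Each tissue was hybridised on 2 arrays (30 in all) and no dye was swapped: Cy3 carried the tissue RNA, and Cy5 a common reference of pooled mouse cell-line RNA mixed with embryonic stem cell RNA. The series' design says that replicates came from different animals except for bone and fat, which had a single replication, so the spread between their 2 arrays may be technical. The tissues were bladder, bone, brain cortex, cerebellum, eyes, fat, heart, kidney, large intestine, liver, lung, skeletal muscle, skin, small intestine and stomach.

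FHL2 belongs to the four-and-a-half LIM domain family, small proteins built almost wholly of LIM domains, zinc-binding folds that hold other proteins together. It is known as an abundant heart protein that sits on the sarcomere, where it binds titin and brings metabolic enzymes and kinases to the contractile apparatus, and as a partner of integrins, beta-catenin and several transcription factors. Serum response factor (SRF), which binds the CArG box, and MEF2 factors are classical regulators of muscle genes. Whole tissues were profiled here, so fewer cells that express a gene and less RNA of it per cell cannot be told apart.

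The Fhl2 probe is a 60-base oligonucleotide with a stop codon in each of the 3 forward reading frames. Its opening 30 bases are shown because every Fhl2 value below is the signal of this 1 spot.
Fhl2 probe, first bases: tcacgggagagctgggatttgcagctttgt
RefSeq (GRCm38.p6) lists 2 Fhl2 start sites, 32800 bases apart on the minus strand of chromosome 1. The 250 bases before each are printed because they differ sharply in composition. Capitals mark matches to the CArG box, the MEF2 site and TATAAA, the forms searched on both strands along with CACGTG, which neither stretch holds. The MEF2 match and the TATAAA match, which lies on the opposite strand, overlap.
Fhl2 upstream start, chr1:43196762-43197011: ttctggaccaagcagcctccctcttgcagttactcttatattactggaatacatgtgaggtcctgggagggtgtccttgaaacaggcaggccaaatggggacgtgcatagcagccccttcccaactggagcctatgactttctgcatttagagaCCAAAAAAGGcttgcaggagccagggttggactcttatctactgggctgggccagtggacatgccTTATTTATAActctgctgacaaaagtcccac
Fhl2 downstream start, chr1:43163962-43164211: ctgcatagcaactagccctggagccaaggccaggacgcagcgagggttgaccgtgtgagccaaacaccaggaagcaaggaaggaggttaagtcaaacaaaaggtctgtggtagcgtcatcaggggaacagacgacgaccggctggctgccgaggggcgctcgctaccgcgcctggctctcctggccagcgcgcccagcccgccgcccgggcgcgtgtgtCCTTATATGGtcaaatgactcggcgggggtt

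The upstream stretch held 1 CpG dinucleotide and 50.4% G or C, against a median of 6 CpG and 52.4% over 32851 mouse promoter stretches of the same length. The downstream stretch held 21 CpG and 63.6% G or C, more CpG than 83.7% of those promoters. A CArG box was present in both, 96 to 87 bases before the upstream start and 31 to 22 bases before the downstream one. Of all promoters, 1.47% held a CArG box, 2.92% a MEF2 site, 12.4% TATAAA and 6.02% CACGTG. The MEF2 match of the upstream stretch lay 31 to 22 bases before the start and the TATAAA match 28 to 23. These motifs were chosen after the sequences had been seen, and a match is a string of letters, not a measured binding site. The array cannot say which start a transcript came from.

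Heart stood far above every other tissue. On the log2 scale of tissue over reference, the 2 heart arrays read 6.21 and 6.15, a mean of 6.18 ± 0.04 (SD, n = 2), or 72.6-fold over the reference. Both heart arrays shared 1 slide and 1 scan day, so this SD holds no spread between slides. On both heart arrays the probe ranked 36 among the 21019 probes tested. Stomach came next with 2.03 and 2.15, followed by brain cortex with 1.71 and 1.49. The gap from heart to stomach was 4.09 (SE 0.50), a 17.0-fold difference, and no array of another tissue came near the heart arrays.

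Below brain cortex came small intestine at 1.16 and 1.27 and bladder at 0.82 and 1.09. Large intestine straddled the reference level with 0.85 and -0.68. Kidney read -0.63 and -0.13, and bone -0.59 and -0.53. These 3 tissues overlapped with their neighbours in the order, so their ranks are not resolved.

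Lung, skin and fat had lower means, but their order is not resolved either. Arrays overlapped between bone and lung, lung and skin, and skin and fat. Lung read -1.22 and -0.37, skin -1.69 and -0.64, and fat -1.46 and -2.48.
The low end began with cerebellum, whose 2 arrays agreed closely at -2.61 and -2.59. Eyes gave -3.06 and -3.17. Skeletal muscle, the other striated muscle of the set, gave -4.14 and -2.43, a 3.26-fold difference between its arrays. Liver was lowest with -4.94 and -4.39. Heart and liver were hybridised on the same slide, and the difference within that slide was 10.85 on the log2 scale.

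In the order of means, the arrays of neighbouring tissues did not overlap between heart and stomach, stomach and brain cortex, brain cortex and small intestine, small intestine and bladder, fat and cerebellum, cerebellum and eyes, or skeletal muscle and liver. The gaps of stomach to brain cortex (0.49), brain cortex to small intestine (0.39) and small intestine to bladder (0.26) were nevertheless no larger than the standard error of 0.50 that the fit gave for a difference of 2 tissues. The gap of skeletal muscle to liver was 1.38.

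**Figure D1:**
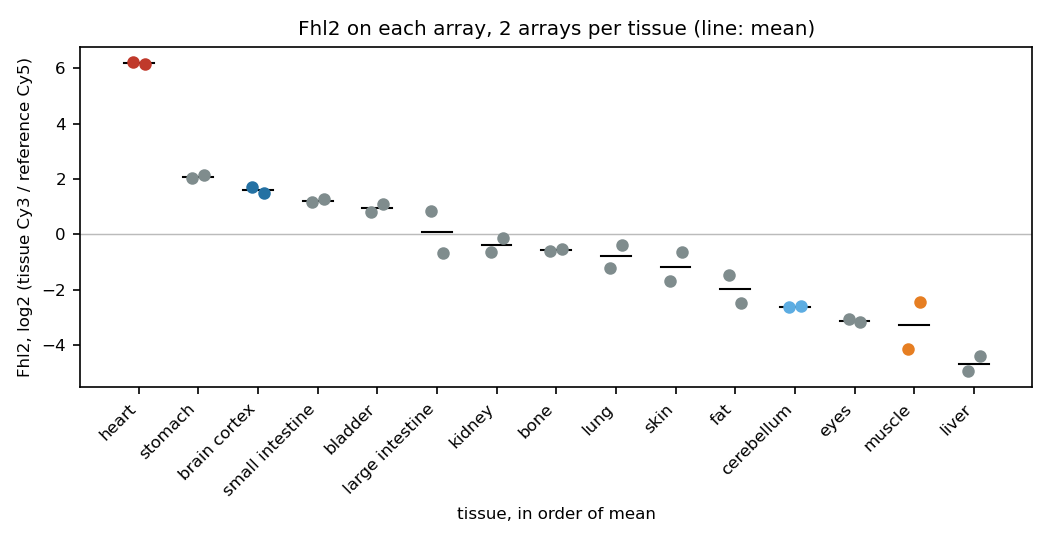
Fhl2 log2 ratio of tissue (Cy3) to reference (Cy5) on the y axis for each of the 30 arrays, with tissues on the x axis in order of their mean. Points are single arrays and lines are means of 2 arrays. Heart sits at 6.21 and 6.15, 4.09 above stomach, and liver is lowest at -4.94 and -4.39.

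The raw signals show where this range came from. In the Cy3 channel the heart spots gave 221554 and 187337 scanner units, against 134 and 182 in liver over local backgrounds of 51 and 52. The reference channel of the same spot stayed between 11861 and 17639 on all 30 arrays, with a median of 16402. The probe was well above background in both channels on every array, so no level is only a bound, and no spot was saturated. After normalization the Cy5 level was lower on the heart arrays (mean 12.60) than on any other array (12.94 to 13.28), and its part in the heart ratio was not tested. With the Cy3 level alone, heart exceeded stomach by 3.72, or 13.2-fold.

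**Figure D2:**
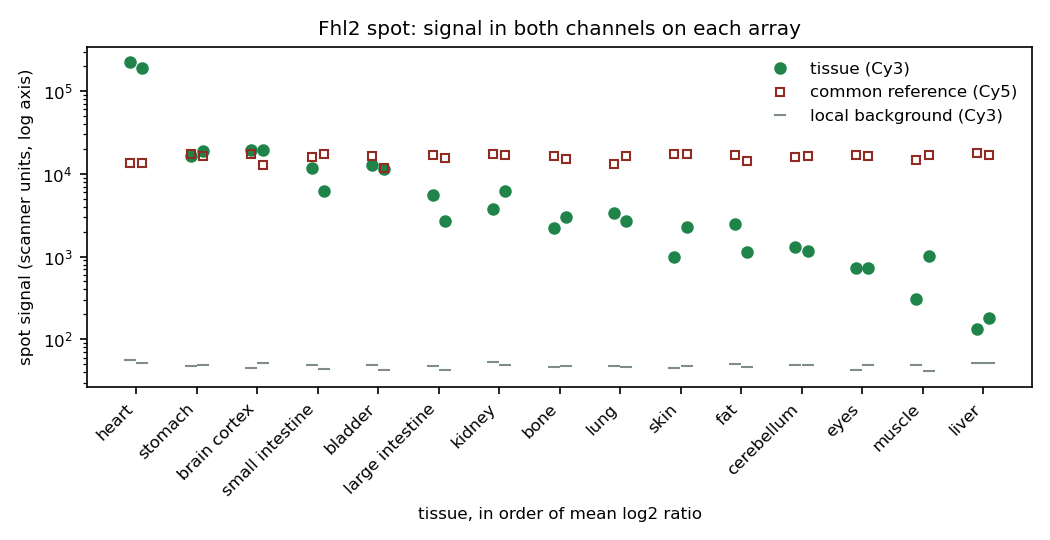
Signal of the Fhl2 spot in scanner units on a log axis, for the tissue channel (filled circles), the reference channel (open squares) and the local Cy3 background (dashes), with 2 arrays per tissue. The tissue channel runs from 134 in liver to 221554 in heart, while the reference channel stays between 11861 and 17639.

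As a share of the summed linear ratios over the 15 tissue means, heart held 82.2% of Fhl2, stomach 4.82% and brain cortex 3.43%. Small intestine held 2.63%, bladder 2.19%, cerebellum 0.186%, skeletal muscle 0.116% and liver 0.0447%. The information content of this distribution, which is 0 for an even gene and 3.91 bits for a gene present in 1 tissue, was 2.69 bits. Fhl2 ranked 97 of the 21019 probes on this measure, whose median was 0.159 bits.

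Heart and skeletal muscle differed by 9.47 in Fhl2 (SE 0.50), a 707-fold difference and rank 2 among the 21019 probes in that direction. It was 8.61 without muscle array 1 and 10.32 without muscle array 2. Brain cortex and cerebellum differed by 4.20 (SE 0.50), which is 18.4-fold and ranked 22. Against the mean of all 14 other tissues, heart was higher by 7.08 (SE 0.37). The heart contrasts share the heart arrays and are not independent. On the slide that held 1 cortex array and both cerebellum arrays, the cortex difference was 4.31. Heart and skeletal muscle shared no slide or scan day, so these cannot be told apart from the tissue.

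Marker genes were read on the same arrays to see what the tissues held. The gene lists here and below were chosen with earlier results of these data known. Their counts beside the share of all probes are a description. A probe is called here when limma's adjusted p is under 0.05 and the log2 difference is at least 1. Between heart and skeletal muscle, 15.2% of the 21019 probes were called (9.17% higher and 6.02% lower in heart). Of 10 tested genes of a skeletal muscle list, 7 were lower in heart and none was higher, with a list median of -3.17 against 0.04 for all probes. Actn3, the alpha-actinin of fast fibres, read -2.90 and -2.76 in heart and 4.87 and 4.92 in muscle, a difference of -7.72 (SE 0.63, adjusted p = 3.83e-08). Mstn, the growth inhibitor myostatin, was not above background in heart and at least 121-fold higher in muscle. Cacna1s, the skeletal calcium channel subunit, was lower in heart by -2.86, and Myog, a muscle-lineage transcription factor, by -3.59. Tnni1, the slow-fibre troponin I, was lower by -3.49, and by -1.83 (adjusted p = 0.0861) without muscle array 2.

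Ankrd23 and Tmem182, also on the skeletal list, were high in both tissues and not called. Ankrd23, an ankyrin repeat protein of striated muscle, read 6.32 and 6.29 in heart and 6.51 and 6.65 in muscle. Its heart minus muscle difference was -0.27 (SE 0.26), and that of Tmem182 was 0.51 (SE 0.50). Myl1, a fast-fibre light chain, gave Cy3 signals of 291 and 189 in heart and 91200 and 105000 in muscle. Its Cy5 signal was also unequal, 123 and 93.8 on the heart arrays and 15200 and 19600 on the muscle arrays. Its ratio was lower in heart by -1.39, a call lost under 27 of 42 alternatives, and turned to 0.51 with the scanner software's processed signals.

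The heart arrays carried the cardiac markers. Tnnt2, cardiac troponin T, read 3.89 and 4.06 in heart and 0.43 and -0.22 in skeletal muscle, a difference of 3.87 (SE 0.46, adjusted p = 4.62e-06). It was the only 1 of 3 tested cardiac genes called between these tissues. Actn2, the sarcomeric alpha-actinin, read 4.82 and 4.93 in heart and 4.18 and 4.24 in muscle. Des, the intermediate filament desmin, read 2.81 and 2.88 against 3.17 and 3.02. In heart against all other tissues, where 18.8% of probes were called (9.68% higher and 9.16% lower), these 3 genes were all higher. The Des call was lost under median centring, where its difference of 0.99 fell below the minimum of 1.

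Cardiac marker genes were also high outside heart. Tnnt2 read 3.23 and 3.81 in lung and 3.69 and 3.63 in bladder. Actn2 read 2.90 and 3.43 in lung and 2.41 and 0.53 in bladder. Fhl2 was -1.22 and -0.37 in lung and 0.82 and 1.09 in bladder, 6.98 and 5.23 below heart on average.

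Where the 2 arrays of a tissue disagreed in Fhl2, some marker genes disagreed as well, in either direction. Over all probes the 2 arrays correlated at 0.671 in fat and 0.798 in large intestine. In skeletal muscle, the array with more Fhl2 (-2.43 against -4.14) also had more Tnni1, 4.86 against 1.54, while Actn3 differed by little, 4.92 against 4.87, and Tnnt2 was lower, -0.22 against 0.43. In skin, the array with more Fhl2 had more Actn3 (4.98 against 2.33), Mstn (6.62 against 2.92) and Tnni1 (2.95 against 0.40), and less Csrp1 (0.60 against 1.12). In lung, the array with more Fhl2 (-0.37 against -1.22) had more Tnnt2 (3.81 against 3.23), Actn2 (3.43 against 2.90), Des (1.80 against 1.17) and Csrp1 (2.78 against 2.48). In fat, the array with more Fhl2 had more of the smooth muscle gene Lmod1 (1.52 against 0.09), of Csrp1 (1.89 against 0.66) and of Des (1.34 against 0.24). In large intestine the array with more Fhl2 had less Lmod1 (2.18 against 2.90) and less Csrp1 (3.49 against 4.61). These pairs are single arrays, and the part of fibre type or of other cells in the Fhl2 values was not tested.

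The smooth muscle list had 4 tested genes. None was called between heart and skeletal muscle or between brain cortex and cerebellum, where 15.2% and 5.47% of all probes were, with 1 and 0 of them at an unadjusted p under 0.05 in limma. Lmod1, leiomodin of smooth muscle, was above background on both arrays in stomach (2.57 and 2.12) and in large intestine (2.18 and 2.90), and on none in heart. In heart against all other tissues, Des was called higher and Csrp1 lower, where 9.68% and 9.16% of all probes were. At an unadjusted p under 0.05 in limma, 1 of the 4 was higher and 3 lower. The share of all probes at that unadjusted p was not computed.

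Brain cortex and cerebellum carried their own markers. Here 5.47% of the probes were called, 3.2% higher in cortex and 2.27% lower. Genes of a forebrain list were higher in cortex. Kcnq5, a potassium channel subunit, was higher by 2.86 (SE 0.25), and Rgs4, a regulator of G protein signalling, by 1.83 (SE 0.35). With processed signals the calls of Kcnq5 (1.85, adjusted p = 0.162) and Rgs4 (1.30, adjusted p = 0.134) were lost. Both cerebellum genes were lower in cortex, En1, a homeobox gene of the mid- and hindbrain, by -3.86 and Fam107b by -3.93.

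A list of genes for described protein partners of FHL2 had 5 tested members. Between heart and skeletal muscle 1 of them was called, near the share of all probes (15.2%). It was Igfbp5, a secreted binding protein of insulin-like growth factors, which was lower in heart by -1.90 (SE 0.45, adjusted p = 0.00386). With slide as a random block the difference was -2.06 and no longer called (adjusted p = 0.0542). Between cortex and cerebellum Actn2 was higher in cortex, a call that 3.2% of all probes had. It read 2.55 and 2.83 in cortex and -0.58 and -0.65 in cerebellum, a difference of 3.30 (SE 0.54, adjusted p = 0.000361). Creb1, a cyclic AMP-responsive transcription factor, differed by 0.09 between heart and muscle and by -0.21 between cortex and cerebellum. Mcm7, a replication helicase subunit, differed by 0.15 and -0.40. The list medians were 0.15 and -0.06.

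Of 8 tested genes of a list of other LIM domain genes, none was called between heart and skeletal muscle, where 15.2% of all probes were, with 3 at an unadjusted p under 0.05 in limma and a median of 0.14. Between cortex and cerebellum, 2 of the 8 were called, both lower in cortex, where 2.27% of all probes were lower. They were Lhx9 and Lmx1a, LIM homeobox genes of neural development, at -2.10 (SE 0.43) and -1.44 (SE 0.18). The list median was -0.25. Without cortex array 2 the Lhx9 difference was -1.51 (adjusted p = 0.0931), and with processed signals neither was called although the differences were larger, -2.52 (adjusted p = 0.181) and -1.67 (adjusted p = 0.444). In heart against all other tissues, 3 of the 8 were higher and 1 lower, where 9.68% and 9.16% of all probes were. Lims1 (1.43) and Ablim3 (1.73) were among the higher ones, and Csrp1 was lower (-1.47). Lims1 encodes PINCH, an integrin adaptor, and Ablim3 encodes an actin-binding LIM protein. Csrp1, a LIM protein of smooth muscle, read -0.37 and -0.27 in heart and 3.34 and 3.06 in stomach. The closest relatives of Fhl2 were not analysed here, since no named probe matched them.

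The probes higher both in heart than in skeletal muscle and in brain cortex than in cerebellum numbered 110, or 0.523% of those tested, and 19 of them had a gene symbol. They made up 5.71% of the probes higher in heart than muscle, where 3.2% of all probes were higher in cortex. They were 16.4% of those higher in cortex than cerebellum, where 9.17% of all probes were higher in heart. Ordered by the smaller of the 2 differences, Fhl2 came at rank 1, which restates how it was picked. Next among the named genes came Epha4, an ephrin receptor, which was higher by 4.14 (SE 0.35) in heart and by 2.93 (SE 0.35) in cortex, with its top level in brain cortex.

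Adrb1, the beta-1 adrenergic receptor of heart muscle, read 5.37 and 5.27 in heart and was not well above background in skeletal muscle, where 1 array was dropped as an outlier spot. Heart was at least 34.0-fold above muscle. In cortex Adrb1 was higher than in cerebellum by 2.13 (SE 0.16), and its top level was in lung. Tnnt2 was higher in cortex by 1.96 (SE 0.46), reading 0.17 and 0.11 against -1.80 and -1.85, a call that was lost when any 1 of these 4 arrays was left out (adjusted p from 0.0573 to 0.0701). Fam81a, a coiled-coil protein gene, was higher in cortex by 2.72 (SE 0.35) and in heart at least 4.99-fold over a muscle level not above background. C2cd4b was higher by 1.77 in heart and 1.85 in cortex (both SE 0.38).

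With the scanner software's processed signals, the cortex calls of 4 of these genes were lost while their differences stayed above 1. The difference became 2.74 for Fam81a (adjusted p = 0.0696), 2.30 for Tnnt2 (adjusted p = 0.118) and 2.28 for C2cd4b (adjusted p = 0.148), none smaller than before. For Adrb1 it fell to 1.33 (adjusted p = 0.294). Epha4 kept its cortex call under all 44 alternatives. With slide as a random block, the heart call of C2cd4b was lost at a difference of 1.71 (adjusted p = 0.0567). With scan day as a random block, an alternative not planned in advance, it was lost at 1.43 (adjusted p = 0.0927).

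**Figure D3:**
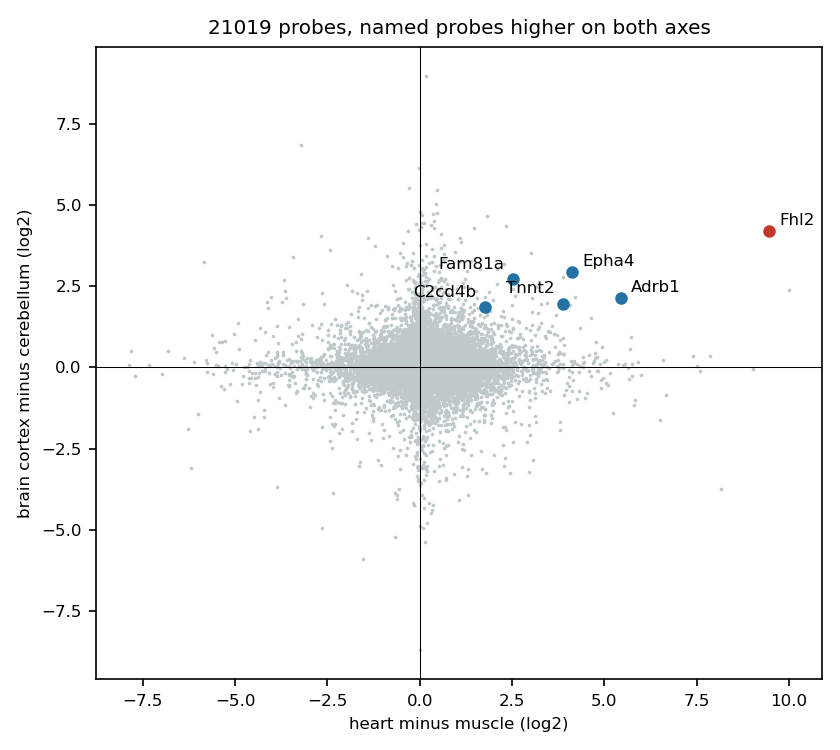
Difference of heart minus skeletal muscle (x axis, log2) against brain cortex minus cerebellum (y axis, log2) for 21019 probes, in grey. Fhl2 (red) lies at 9.47 and 4.20, and the other 5 named probes leading the shared list (blue) lie between 1.85 and 2.93 on the y axis. The x positions of Adrb1 and Fam81a are fitted values against a muscle level not above background and give no measured difference.

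Other probes were compared with Fhl2 by their profile over the tissues. Pearson's r over the 15 tissue means, which share 1 reference and the same arrays, was above 0.8 for 2 of 21018 probes and above 0.9 for 0. How many a typical probe has was not counted. The named probe most like it was Tomm5, a subunit of the mitochondrial import pore, with r = 0.80 and a heart mean of 1.16. Unlike Fhl2, Tomm5 read lower in brain cortex (-0.60) than in cerebellum (-0.30). Acss1, mitochondrial acetyl-CoA synthetase, had r = 0.76, with 4.94 in heart, 3.94 in stomach and -3.40 in liver. Pam, a peptide-amidating enzyme abundant in atria, had r = 0.76 and a heart mean of 2.43. Uqcrh, a subunit of respiratory complex III, had r = 0.73 with 2.20 in heart. The others of the first 10 were Rflnb, Rabgap1l, Ctla4, 1700017M07Rik, 1700110I01Rik and Adcy5, with r from 0.65 to 0.67.

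For most of the 10, the likeness leaned on heart. Without heart, r fell to 0.59 for Tomm5, 0.51 for Pam and 0.45 for Uqcrh, while Acss1 stayed at 0.71. The lowest were 0.14 for 1700110I01Rik and 0.26 for Ctla4, and Rflnb did not fall (0.68). Adcy5, an adenylyl cyclase of heart and striatum, read 3.84 in heart and 3.41 in brain cortex, and it was 0.62 in skeletal muscle and 2.86 in cerebellum. Over the 14 tissues without heart, the named probes most like Fhl2 were Spats2l (r = 0.78), the clock-gene relative Npas2 (r = 0.77) and Pls1, a fimbrin of intestinal microvilli (r = 0.75). None of the 10 genes most like Fhl2 over all tissues held a CArG box in the 250 bases before a RefSeq start, and 1, Tomm5, held a MEF2 site. Over all genes the shares were 1.62% and 3.42%.

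**Figure D4:**
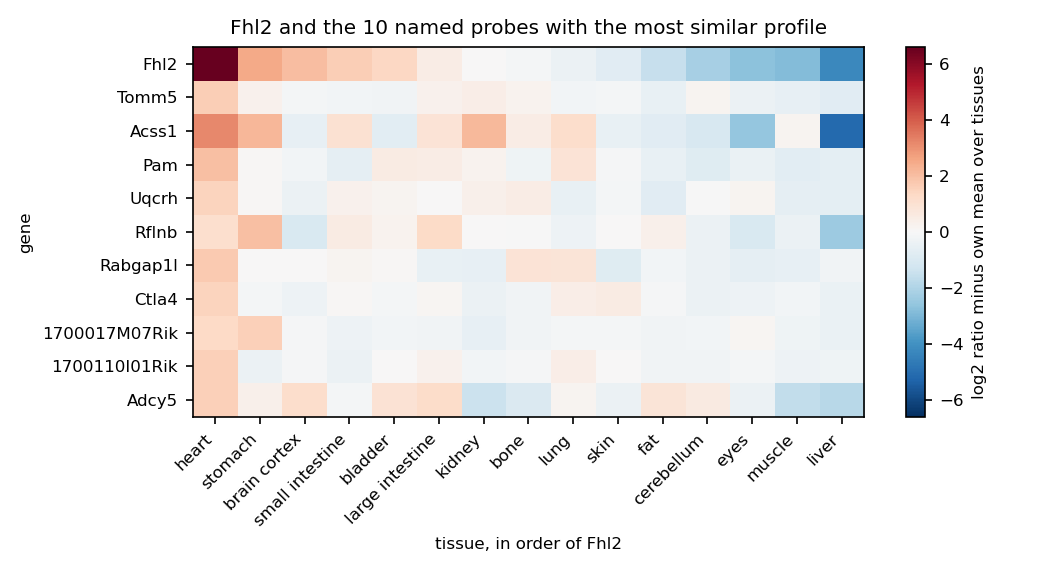
Heat map of Fhl2 and the 10 named probes with the highest Pearson r to it, in rows, over 15 tissues in columns. Colour gives the log2 ratio minus the row's mean. Heart is the highest tissue in 8 of the 10 rows below Fhl2, and liver lies below the row's mean in all 10.

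The genes on either side of Fhl2 on chromosome 1 were read for comparison. In RefSeq order the nearest named genes with a probe were Pou3f3, Mrps9, Gpr45, Tgfbrap1, 8430432A02Rik and AI597479 on one side and Nck2, Ecrg4, Uxs1, Tpp2, Mettl21c and Tex30 on the other. Of these 12, 1 was higher and 1 lower in heart than in skeletal muscle, near the share of all probes called (15.2%), with a median of -0.09. None was called between cortex and cerebellum, where 5.47% of all probes were, with 2 at an unadjusted p under 0.05 in limma. Mrps9, a mitochondrial ribosomal protein, read 1.20 and 1.17 in heart and -0.39 and -0.16 in muscle, a difference of 1.46 (SE 0.25, adjusted p = 0.000247), which was not called under median centring (0.89, adjusted p = 0.0737).

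Mettl21c, a methyltransferase of skeletal muscle, ran opposite to Fhl2. It read 7.73 and 8.0 in skeletal muscle and 0.14 and -0.12 in heart, where 1 of 2 arrays was above background, a difference of -7.86 (SE 0.36). The direct neighbours AI597479 and Nck2 differed between heart and muscle by 0.03 and -0.93 and were not called. Nck2, an SH2/SH3 adaptor, differed by 0.80 between cortex and cerebellum (SE 0.40, adjusted p = 0.325). Pou3f3 and Gpr45, genes of neurons, read 3.48 and 2.86 and 2.76 and 2.66 in cortex, and 2.10 and 2.88 and 1.89 and 1.97 in cerebellum. Neither was well above background on a heart array.

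**Figure D5:**
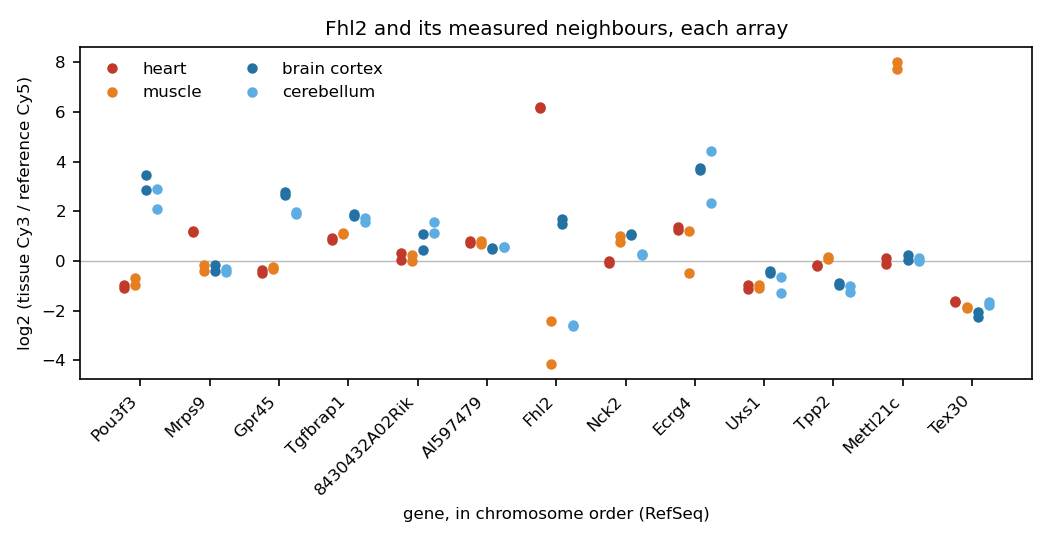
Log2 ratio of tissue to reference (y axis) for Fhl2 and 12 neighbouring genes in chromosome order (x axis), with 2 arrays each of heart, muscle, brain cortex and cerebellum as points. Fhl2 is high in heart (6.21 and 6.15) and low in muscle, and Mettl21c is at 7.73 and 8.0 in muscle.

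Across the series, 58.0% to 78.3% of the table's probes were well above background per array, the median Cy3 signal was 106 to 275 scanner units, and replicate arrays correlated at 0.671 to 0.991. Among the 15 tissues 90.7% of tested probes differed by an F-test, so a difference among tissues is common. With 2 arrays per tissue, the precision rests on the pooled spread, 0.54 for the Fhl2 probe over 15 residual degrees of freedom. That fit treats arrays as independent. With tissue fitted, arrays of 1 slide correlated at 0.69 and those of 1 scan day at 0.59. The main standard errors and adjusted p leave this out.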

How the data were processed

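Total RNA of each tissue was labelled with Cy3 and hybridised with the Cy5 reference to Agilent 2-colour arrays. Per the file headers, Feature Extraction 9.5.1.1 was used by the authors to read the spots. Each deposited spot file gives intensity values (mean signal and local background per channel), a log10 ratio and other columns, such as flags for outliers and signal well above background. The deposited value table gives 25030 probes on a log10 scale. Between arrays it followed the processed Cy3 over Cy5 signals (r 0.963 to 0.998 after centring each probe, slope 0.895 to 0.989). Its column medians were 2.50 to 2.65, so the direction and scale are known and the constant added per probe is not given in the sources used here.

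Intensities were corrected with normexp (offset 50) and loess-normalized within each array, giving log2 of Cy3 over Cy5, in limma 3.58.1 under R 4.3.3. Of 42034 spots that are no controls, 475 outlier readings over all arrays were removed. Testing was limited to the 21019 of 25030 probes that cleared the background flag on each array of 1 tissue or more. A linear model with a coefficient per tissue and empirical Bayes moderation was fitted to the 30 arrays, with Benjamini-Hochberg adjustment over all probes and a minimum log2 difference of 1. The script was tested on simulated data. At-least folds set the bright group's Cy3 level against the lowest signal well above background, or the dim probe's own where higher. Without dye swaps they are open to dye bias.

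Symbols came from the study's probe lists (5971 probes), updated through RefSeq: 3619 were current, 1866 synonyms and 486 neither. Named genes were Fhl2, the 10 named probes with the highest r to it, the 6 leading named probes called in both contrasts, the listed genes and the 6 named neighbours on each side. The member, lists and rules were chosen with earlier results of these data known. Alternatives were other background corrections, scalings, filters, blocks for slide, scan day and replicate, and leaving out each array. Some listed genes are not reported here.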

Additional observations from a re-analysis of the deposited data

How the results depend on the processing

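Heart's margin over the next tissue, heart minus muscle and cortex minus cerebellum kept their direction in Fhl2 under the alternatives run for them. Heart's margin over the next tissue (4.09) was 4.32 with a normexp offset of 16, 4.40 with processed signals, 4.40 with the authors' value table and 3.72 with the Cy3 level alone. Fhl2 information (2.69 bits) was 2.80, 2.84, 2.84 and 2.41 under these, 2.57 with median centring and 2.53 without fat, bone and large intestine, an alternative chosen after seeing the data. The cortex minus cerebellum difference was 4.47 with scan day as a fixed block. The causes were not tested. Leaving out single arrays gave 4.03 to 4.15 for the margin, 8.61 to 10.32 for heart minus muscle, 4.09 to 4.31 for cortex minus cerebellum and 2.65 to 2.72 bits. The heart minus muscle value was lowest without muscle array 1 and highest without muscle array 2, which is a change of over 1.5 times on the linear scale.

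Calls numbered 3961 for heart against the others (3397 to 4089 leaving out an array), 3194 for heart against muscle (2602 to 3354), 1150 for cortex against cerebellum (857 to 1313) and 19074 in the F-test (18714 to 19494). The F-test on all probes of the array gave 30912 of 34637 tested. Median centring turned the heart against muscle split from 1928 higher and 1266 lower to 1036 and 1313. Myl1 turned from -1.39 to 0.51 with processed signals and with the value table. Slide as a random block gave 2218 heart against muscle calls. Slide or scan day as a fixed block could not be fitted for the heart contrasts, because heart shared its slide with liver alone and no chain of shared scan days joined it to muscle. Deviations of arrays with the same replicate number correlated at -0.25 to 0.34 (median 0.05), and over 0.1 in 32 of 105 tissue pairs. Slide and scan day enter these values, so they do not show whether replicate numbers pair the arrays by animal. With the replicate block the counts were 3968, 3221, 1162 and 19189. The Fhl2 differences of 9.47 and 4.20 could not change under it, since each tissue had 1 array of each replicate number. Over the calls of single named and listed genes, 2800 re-computed values kept their call, 106 lost it and 2 reversed.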
